A study of Rattus norvegicus with 12 samples.

Results

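The 10 genes described here encode enzymes of the urea cycle (Nags, Cps1, Otc, Ass1, Asl and Arg1) and enzymes that break down single amino acids (Hal, Gls2, Sds and Tat). They were taken by name from the 16558 genes of the joined count tables. No rule on measured values picked them, but they were chosen with earlier results of these data known. All 10 were found and all 10 passed the filter on low counts, with between 355 counts (Nags in 1 model library) and 67741 counts (Cps1 in another) per gene and library. RNA was sequenced from the liver of Sprague Dawley rats, which are outbred, with 3 libraries in each of 4 groups. The normal group is titled wt and was given saline. The model group ate a high-fat diet over 8 weeks, a common model of fatty liver. The other 2 groups had the high-fat diet as well and were treated with didymin, a flavonoid glycoside of citrus fruit, at a low or a high dose. In the count tables these groups carry the letters D and G, and no label ties either letter to a dose. They are named arm D and arm G. The sources used here give neither sex and age nor feeding state and the hour of tissue collection. The labels tie no library to an animal. The p-values of the main fit set a difference between groups against the spread of libraries within all 4 groups. With no animal named, that spread may in part be technical. The model libraries are M.5, M.6 and M2.1, and the labels do not say why the last is named in another way.

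The urea cycle converts ammonia, freed when amino acids are broken down, into urea for excretion, and the liver is the organ that runs the whole cycle. In the mitochondrion Nags makes N-acetylglutamate, the activator that Cps1 needs to form carbamoyl phosphate, and Otc joins carbamoyl phosphate to ornithine to give citrulline. In the cytosol Ass1 joins citrulline to aspartate, Asl splits the product into arginine and fumarate, and Arg1 releases urea from arginine and returns ornithine. Hal removes ammonia from histidine, Gls2 is the liver-type glutaminase that frees ammonia from glutamine, Sds converts serine to pyruvate and ammonia, and Tat starts the breakdown of tyrosine. These enzymes are known as hepatocyte enzymes enriched near the portal vein, and several of them, Tat and Sds among them, as targets of glucagon and glucocorticoids. In bulk liver RNA, fewer cells of a type and less RNA per cell cannot be told apart.

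The stretches of 250 bases before the annotated start of Cps1, Ass1 and Asl are printed because Cps1 and Asl, enzymes of the same cycle, lay at opposite ends of the range in G.3, the arm G library described below, while Ass1, which acts just before Asl, was the urea cycle gene whose model libraries did not overlap with the normal ones. They were chosen after the values were seen. The sequences are RefSeq's for the rat build GRCr8, read 5′ to 3′ on the gene's strand, which is the plus strand for all 3. The Cps1 stretch is chr9:76063613-76063862 and has 38.0% G and C, that of Ass1 is chr3:35149480-35149729 with 51.2%, and that of Asl is chr12:32295658-32295907 with 64.0%, where the median of all promoters in the table was 51.2%. Capitals mark a match to a searched motif.

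Cps1: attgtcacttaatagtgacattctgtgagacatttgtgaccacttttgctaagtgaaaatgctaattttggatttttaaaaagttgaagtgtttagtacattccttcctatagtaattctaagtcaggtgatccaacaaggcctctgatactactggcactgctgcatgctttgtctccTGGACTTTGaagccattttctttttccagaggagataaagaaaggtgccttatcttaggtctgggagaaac

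Ass1: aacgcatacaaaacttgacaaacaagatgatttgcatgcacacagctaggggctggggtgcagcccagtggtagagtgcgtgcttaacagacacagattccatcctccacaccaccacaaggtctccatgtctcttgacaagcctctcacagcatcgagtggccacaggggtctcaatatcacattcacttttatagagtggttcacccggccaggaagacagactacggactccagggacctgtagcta

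Asl: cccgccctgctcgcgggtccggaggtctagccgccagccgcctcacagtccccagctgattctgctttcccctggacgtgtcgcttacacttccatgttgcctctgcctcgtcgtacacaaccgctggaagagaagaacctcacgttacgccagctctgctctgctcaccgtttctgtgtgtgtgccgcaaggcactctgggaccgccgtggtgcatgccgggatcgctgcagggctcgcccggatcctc

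Windows of 300 bases (250 before and 50 after a start) were held in the table for 7 of the 10 genes (8 windows, with 2 for Gls2), and Arg1, Hal and Sds had none. On both strands, CAAAGTCCA, a core of sites for the hepatocyte factor HNF4, was found in the Cps1 window alone, beginning 71 bases before the start as its reverse complement TGGACTTTG. It was held by 0.391% of the 33469 windows of this length in the table. TGACGTCA (cAMP response element, 1.83% of all windows), TTGCNNAA (C/EBP, 10.6%), TGTTCT (short glucocorticoid site, 20.7%) and the full palindromic glucocorticoid response element, which contains that short site (0.0149%), were in 0 of the 8 windows. A match describes the letters and no binding was measured.

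Total counts ran from 12469914 to 15521648 per library. The 13 genes of the mitochondrial genome took 61.0% of the counts in the arm G library G.3 and 44.1% in the model library M.6, against 3.85% to 18.8% in the other 10 libraries. Counts from nuclear genes were 4869054 in G.3 and 7173229 in M.6, and 10887482 to 14761817 in the others. Levels are given in CPM, counts relative to a library size scaled by the TMM method, and differences as log2 fold changes with their standard error (SE). In a list of kidney, pancreas and muscle genes, Umod and Slc12a1 of kidney had at most 3 counts and Acta1 of muscle at most 5 in any library, while Cela1, a pancreatic elastase gene, had 158 to 679 counts (8.57 to 53.4 CPM) and its part in the values of the 10 genes was not tested. Albumin (Alb), the main secreted protein of hepatocytes, was at 24398 CPM in G.3, 47144 CPM in M.6 and between 91238 and 129720 CPM in the other 10 libraries.

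No gene of the 10 passed an adjusted p of 0.05 in any comparison of groups, and the sharpest contrasts lay between single libraries. On the TMM scale, M.6 held the lowest level of all 12 libraries in 9 of the 10 genes, all but Asl. G.3 held the highest level in Asl, Hal, Gls2 and Sds, and lay below the other 10 libraries, M.6 aside, in Cps1 and Ass1. Such ranks depend on the scale. Summed, the 10 genes in G.3 ranked 7 of 12 on the TMM scale, but as a share of nuclear counts (1.27%) they ranked highest. Ranks of single genes as shares of nuclear counts were not computed in full, but some differ from those on the TMM scale. Nags had 355 of 7173229 nuclear counts in M.6, a higher share than the 478 of 10887482 in M.5. Tat had 8085 of 4869054 in G.3, a higher share than the 21243 of 13976541 in G.1. The library M2.1 was the highest of the 3 model libraries in 6 genes and lay within the range of the normal libraries in 5. Arm D was the most even group: the median coefficient of variation (CV, the SD as a percentage of the mean) over the 10 genes was 20.3% in arm D and 22.2% in the normal group, and 41.6% in the model and 38.7% in arm G. The CV was higher in the model than in arm D for 10 of 10 genes, and the share of all genes with this order was not computed. Over all genes, mitochondrial ones included, pairs of model libraries differed in raw counts by a chi-square per degree of freedom of 225 to 639. For pairs of normal libraries it was 36.0 to 108, for arm D 22.4 to 144 and for arm G 47.9 to 893. Genes with many counts weigh most in this value, so whether other genes spread as these 10 do was not tested.

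**Figure D1:**
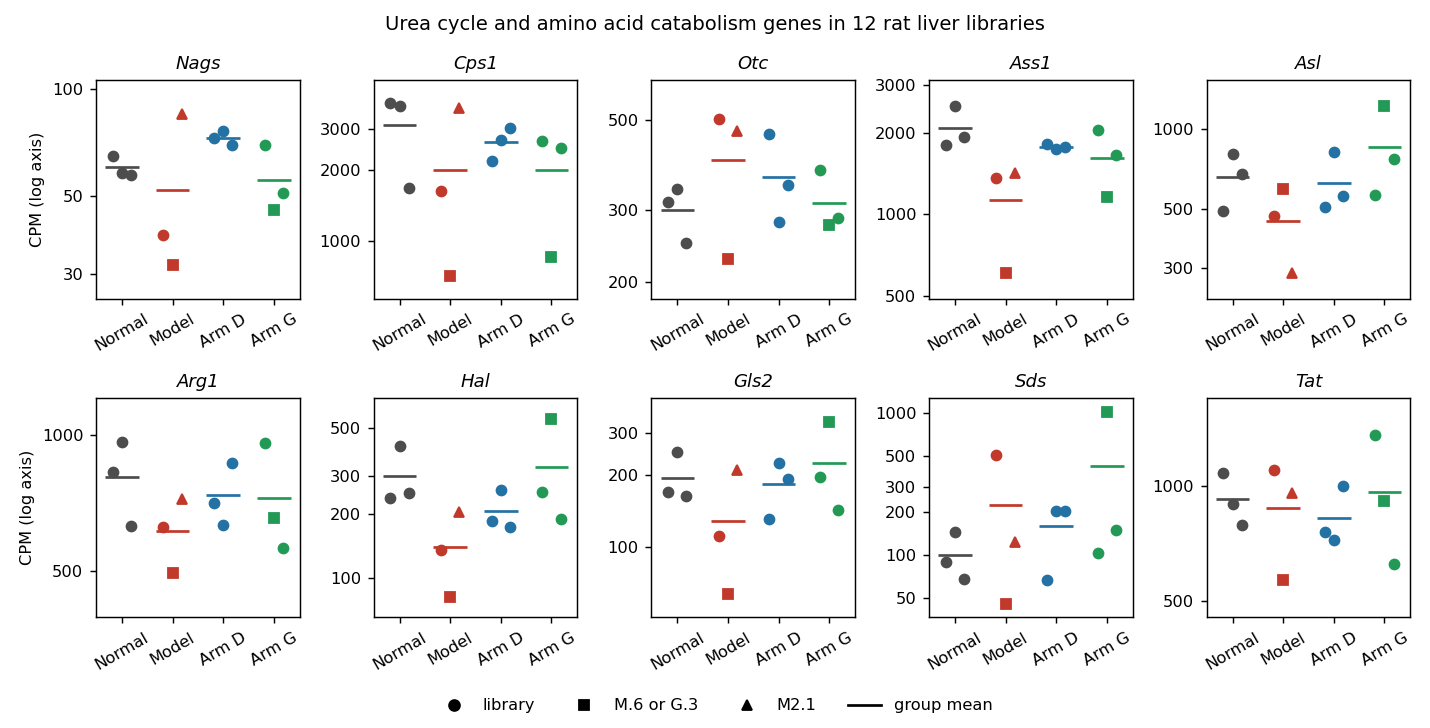
Level of each gene in CPM (log axis, 1 panel per gene) in the 3 libraries of each group, with the group mean as a line. Squares mark M.6 and G.3 and triangles M2.1. M.6 is the lowest point of 9 panels, and G.3 the highest of the Asl, Hal, Gls2 and Sds panels.

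Among the mitochondrial steps, Nags was at 64.9, 58.0 and 57.3 CPM in N.1, N.2 and N.3, at 38.7, 31.9 and 85.0 CPM in M.5, M.6 and M2.1, at 72.9, 76.1 and 69.7 CPM in D.1, D.4 and D.7, and at 69.4, 45.5 and 50.8 CPM in G.1, G.3 and G.4. The model libraries thus lay on both sides of the normal ones, with M2.1 the highest of all 12. The 3 libraries of arm D lay within a narrow band (72.9 ± 3.24 CPM, SD, n = 3), above every normal library and every library of arm G. Such an order without overlap held for 8.58% of all tested genes in the direction of higher in arm D than in normal, and for 3.35% in the direction of lower in arm G than in arm D. The log2 fold change of arm G against arm D was −0.40 ± 0.33 (adjusted p = 0.999, edgeR's quasi-likelihood test).

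Cps1, the entry enzyme of the cycle, was at 3882, 3752 and 1682 CPM in the normal libraries, at 1629, 713 and 3673 CPM in the model, at 2202, 2703 and 3019 in arm D, and at 2673, 855 and 2492 CPM in arm G. M.6 and G.3 were the lowest libraries, at 0.265 and 0.318 times the median of the other 10, and N.3 and M.5 were next. M2.1 stood beside N.1 and N.2, and all groups overlapped. The model against normal fold change was −0.63 ± 0.59 (log2, 95% interval −1.92 to 0.65), an interval wide enough to hold 0 and the fold change of every other urea cycle gene. Otc was at 314, 338 and 249.9 CPM in normal, 501, 227 and 468 CPM in the model, 461, 280.5 and 345 in arm D, and 376, 275 and 288 CPM in arm G. It was the only urea cycle gene with a positive fold change in the model (0.41 ± 0.33), with M.5 and M2.1 the highest of all 12 libraries and M.6 the lowest.

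Among the cytosolic steps, Ass1 was at 1794, 2506 and 1919.5 CPM in normal and at 1361, 609 and 1421 CPM in the model, so that every model library lay below every normal one. In arm D it was at 1816, 1732 and 1775 CPM, with a CV of 2.37%, the smallest of any gene and group here, and all 3 libraries lay above the model. In arm G it was at 2041, 1154 and 1651 CPM, with G.3 below the other 2 and inside the model range. Asl was at 492, 800.2 and 674 CPM in normal, 470.1, 595 and 287 CPM in the model, 507, 815 and 557 in arm D, and 565, 1222 and 772 CPM in arm G. It was the gene in which the order of libraries differed from the rest: M.6 was the highest model library, M2.1 the lowest of all 12 and G.3 the highest of all 12, at 2.18 times the median of the other 10 (M.6 aside). Arg1 varied least over all 12 libraries, 1.95-fold from M.6 at 495 CPM to N.2 at 964 CPM. Its group means were 808 ± 167 CPM in normal, 615 ± 114 CPM in the model, 736 ± 121 CPM in arm D and 727 ± 208 CPM in arm G (SD, n = 3), and all groups overlapped.

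Among the enzymes of amino acid breakdown, Hal was at 236, 414 and 249.7 CPM in normal and at 136, 82.4 and 203 CPM in the model, with no overlap. In arm D it was at 185, 258 and 174 CPM, and in arm G at 253, 551 and 188 CPM. G.3 was the highest library of all and M.6 the lowest, 6.69-fold apart. Gls2 was at 169.9, 248 and 163 CPM in normal, 111, 63.9 and 209.5 CPM in the model, 131, 225 and 193 in arm D, and 196, 333 and 143 CPM in arm G, again with G.3 highest and M.6 lowest (5.22-fold apart). Tat was at 1085, 900.3 and 791 CPM in normal, 1103, 568 and 959 CPM in the model, 759, 722 and 1002 in arm D, and 1357, 917 and 627 CPM in arm G. All groups overlapped in Gls2 and Tat.

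Sds had the widest range of the 10 genes, 22.4-fold between G.3 at 1018 CPM and M.6 at 45.4 CPM. It was at 89.3, 145 and 67.5 CPM in normal, 504, 45.4 and 124 CPM in the model, 66.6, 205 and 206 in arm D, and 103, 1018 and 151 CPM in arm G. The 2 high libraries, G.3 and M.5, belonged to different groups, and the level in G.3 was 7.59 times the median of the 10 libraries other than G.3 and M.6. The group means are accordingly imprecise, at 224 ± 245 CPM in the model libraries and 424 ± 515 CPM in those of arm G (SD, n = 3), and a change of Sds in any group cannot be read from them.

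**Figure D2:**
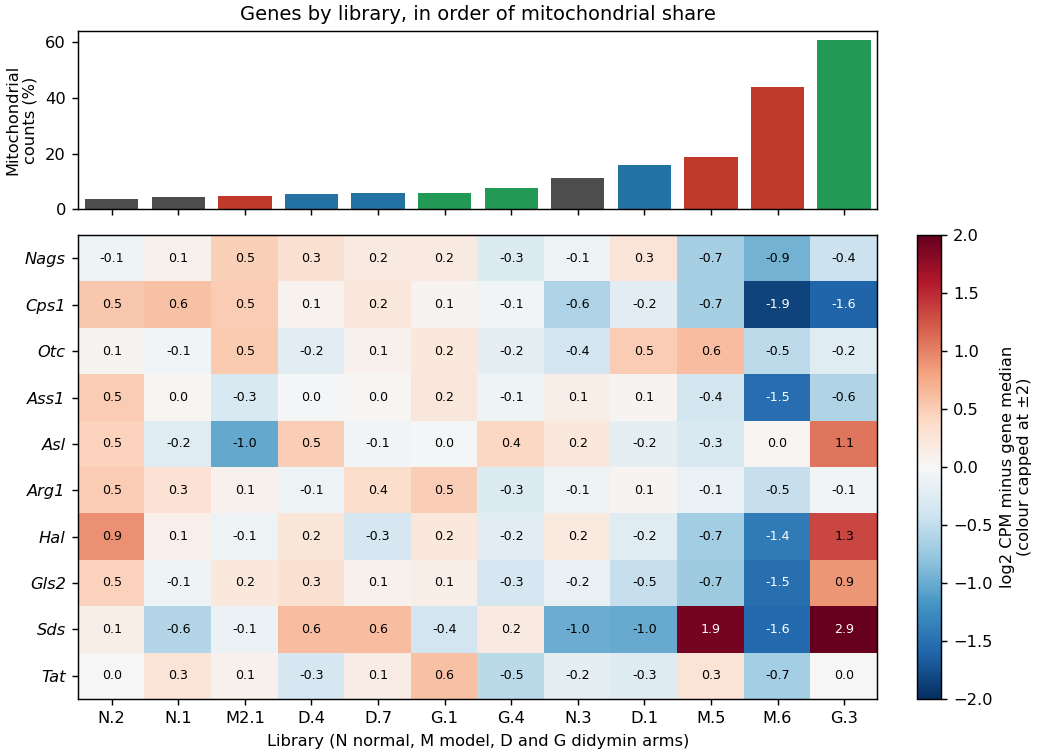
Log2 CPM of each gene minus its median over the 12 libraries (colour and printed value), with libraries in order of the share of counts from mitochondrial genes (bars above, in %). M.6 is blue in 9 of 10 rows, while G.3, with the highest mitochondrial share at 61.0%, is blue in Cps1 and red in Asl, Hal, Gls2 and Sds.

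The comparison of model with normal asks what the high-fat diet changed. Ass1 and Hal were lower in the model, without overlap of the libraries, and most of the others had small negative fold changes. The log2 fold change was −0.88 ± 0.37 for Ass1 (unadjusted p = 0.0366, edgeR's quasi-likelihood test) and −1.10 ± 0.44 for Hal (unadjusted p = 0.0285), and the adjusted p was 0.866 for both. The rest were −0.63 ± 0.59 (Cps1), −0.60 ± 0.43 (Gls2), −0.54 ± 0.38 (Asl), −0.39 ± 0.31 (Arg1), −0.21 ± 0.33 (Nags), −0.08 ± 0.36 (Tat), 0.41 ± 0.33 (Otc) and 1.16 ± 0.92 (Sds). The median of the 10 was −0.47 and 8 of 10 were negative, where the median of all 12355 tested genes was 0.03 and 52.6% were positive.

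None of the 10 genes passed an adjusted p of 0.05 in edgeR, DESeq2 or limma-voom, and 2 of 10 had an unadjusted p under 0.05 in edgeR. Over all tested genes 0% passed in edgeR, and 4.91% (607 genes) had an unadjusted p under 0.05, 3.01% higher and 1.9% lower. DESeq2 called 42 genes of all tested. The model libraries lay below all normal ones in 2 of the 10 genes, against 5.29% of all genes, and above them in 0, against 5.25%. Both fold changes stayed negative in every alternative, and an unadjusted p under 0.05 was kept in 18 of 21 alternatives by Hal and in 14 of 21 by Ass1. Among those where it was not kept, without M.6 the fold change of Ass1 was −0.58 (unadjusted p = 0.132, edgeR) and that of Hal −0.83 (unadjusted p = 0.103), and without N.2 that of Hal was −0.79 (unadjusted p = 0.124). Without both M.6 and G.3 the values were −0.58 for Ass1 (unadjusted p = 0.0311) and −0.83 for Hal (unadjusted p = 0.0309), with 5 of the 10 genes and 657 of 12499 genes under 0.05. M.6 lay below all 3 normal libraries in 9 genes, M.5 in 7 and M2.1 in 3. M.6 also had the second highest mitochondrial share and a low level of Alb, whose part in these values was not tested.

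Without M2.1, the library named in another way, the model was M.5 and M.6 alone, and the fold change was −1.47 for Hal, −1.41 for Cps1, −1.15 for Gls2, −1.08 for Ass1 and −0.77 for Nags, farther from 0 than with all libraries, and −0.31 for Asl, nearer to 0. An unadjusted p under 0.05 was then found in 5 of the 10 genes and in 2561 of all tested genes in edgeR, against 2 and 607 with all libraries. In the authors' deposited table of normal against model, the log2 fold change of normal over model was 1.09 for Hal (adjusted p = 0.476) and 0.87 for Ass1 (adjusted p = 0.636). No member was among the 53 genes that this table lists with an adjusted p below 0.05.

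Each arm was set against the model to ask how didymin altered the livers on the high-fat diet, and both comparisons share the 3 model libraries. In 8 of 10 genes the mean of arm D lay between the model and the normal means, as a description with no test. The share of all tested genes with such an order was not computed, so the count cannot be read as a trait of these genes. Ass1 was the clearest, with a mean of 1774 ± 42.1 CPM in arm D against 1130.1 ± 453 CPM in the model libraries (SD, n = 3), no overlap and a log2 fold change of 0.65 ± 0.37 (adjusted p = 0.801, edgeR). Fold changes were 0.55 ± 0.44 (Hal), 0.51 ± 0.43 (Gls2), 0.49 ± 0.33 (Nags), 0.48 ± 0.38 (Asl), 0.40 ± 0.59 (Cps1), 0.26 ± 0.31 (Arg1), −0.08 ± 0.36 (Tat), −0.14 ± 0.33 (Otc) and −0.50 ± 0.91 (Sds). Adjusted p-values ran from 0.801 to 0.975 in edgeR, and 0 of 10 genes had an unadjusted p under 0.05.

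Over all tested genes 0% passed in edgeR for arm D, 14 genes were called by DESeq2, and 6.28% (776 genes) had an unadjusted p under 0.05 in edgeR, 3.04% higher and 3.24% lower. Arm D lay above the model without overlap in 1 of 10 genes (Ass1), against 5.93% of all genes, and below it in 0, against 6.71%. The median of the 10 was 0.44 with 7 positive, and that of all genes −0.04 with 46.7% positive. Without M.6 the fold change of Ass1 was 0.35, and those of Hal, Gls2 and Nags were 0.28, 0.19 and 0.24. Without M2.1 they were 0.85, 0.92, 1.07 and 1.05, in the same order. Asl moved the other way, to 0.73 without M.6 and to 0.24 without M2.1. Over all genes the 776 with an unadjusted p under 0.05 became 406 without M.6 and 1802 without M2.1.

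In arm G, Hal and Asl had the largest fold changes relative to their error, at 1.24 ± 0.44 (unadjusted p = 0.016, edgeR) and 0.92 ± 0.38 (unadjusted p = 0.0318), with an adjusted p of 1 for both. Their libraries overlapped with the model, since G.4 at 188 CPM of Hal lay below M2.1 at 203 CPM, and G.1 at 565 CPM of Asl lay below M.6 at 595 CPM. The others were 0.81 ± 0.44 (Gls2), 0.92 ± 0.91 (Sds), 0.52 ± 0.37 (Ass1), 0.24 ± 0.31 (Arg1), 0.14 ± 0.36 (Tat), 0.09 ± 0.33 (Nags), 0.00 ± 0.59 (Cps1) and −0.35 ± 0.33 (Otc). The 4 enzymes of amino acid breakdown were all positive, with a median of 0.86, while the 6 of the urea cycle had a median of 0.17.

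Over all genes 0% passed in edgeR for arm G and DESeq2 called 5 genes. An unadjusted p under 0.05 in edgeR was found for 2 of the 10 genes and for 2.32% of all genes (287), 1.2% higher and 1.13% lower. Without G.3 these counts were 0 of the 10 and 921 of all genes, and without M2.1 they were 3 and 814. Arm G lay above the model without overlap in 0 of 10 genes, against 2.61% of all genes, and below it in 0, against 2.09%. The median of the 10 was 0.38 with 9 positive, and that of all genes 0.00 with 50% positive. An unadjusted p under 0.05 was kept in 17 of 21 alternatives by Hal and in 16 of 21 by Asl. Even so, the values moved with single libraries of either group. Without G.3 the fold change was 0.66 for Hal (unadjusted p = 0.111, edgeR), 0.58 for Asl (unadjusted p = 0.133) and −0.81 for Sds. Of the model libraries, leaving out M.6 took Hal to an unadjusted p above 0.05, and leaving out M.5 or M2.1 did so for Asl. Without M.6 and G.3 the fold change was 0.39 for Hal (unadjusted p = 0.29), 0.83 for Asl (unadjusted p = 0.0455) and −1.30 for Sds. G.3 had the highest mitochondrial share and the lowest level of Alb, whose part in these values was not tested. The authors' deposited table of arm G against the model gives 1.20 for Hal and 0.90 for Asl, both with an adjusted p of 1.

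**Figure D3:**
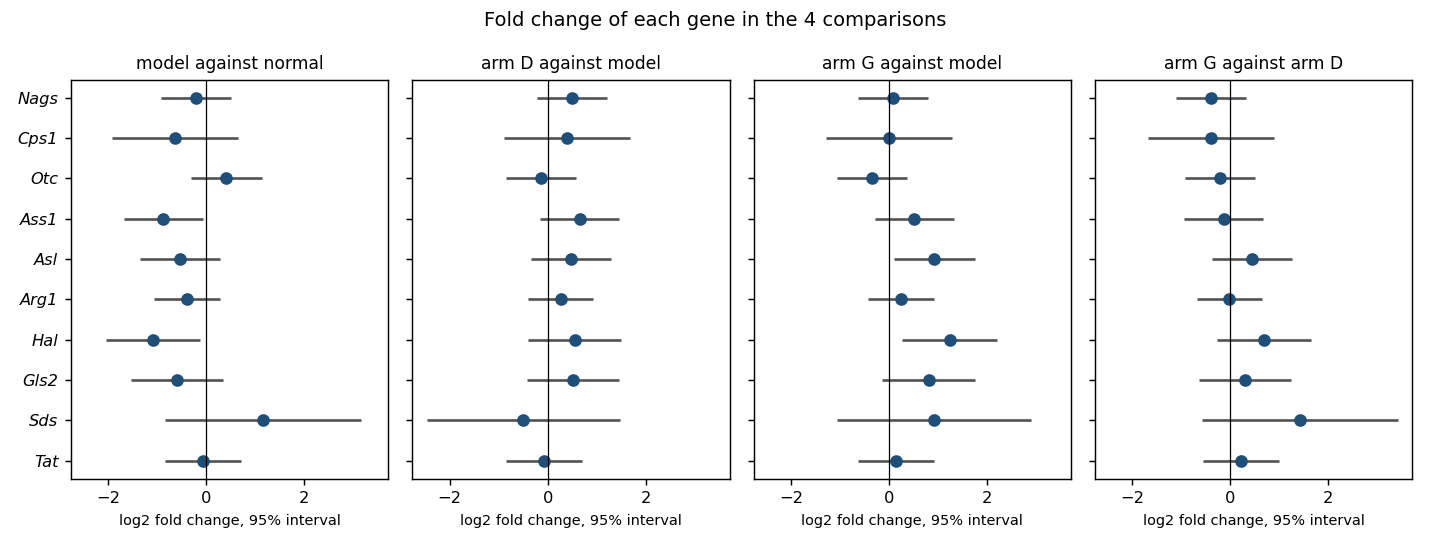
Log2 fold change of each gene with its 95% interval from edgeR in the 4 comparisons. The interval excludes 0 for Ass1 and Hal in the model against normal and for Asl and Hal in arm G against the model, before any adjustment, and Sds has the widest interval in each panel.

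**Figure D4:**
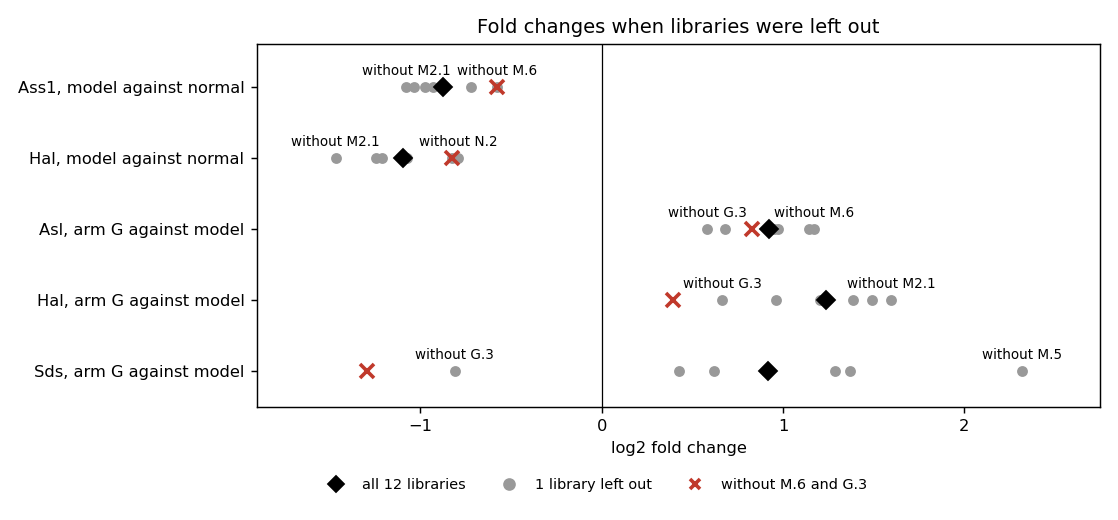
Log2 fold change of 5 results with all 12 libraries (diamond), with each library left out in turn (grey points, the lowest and the highest labelled) and without M.6 and G.3 (cross). The value for Sds in arm G against the model goes from 0.92 to −0.81 without G.3 and to 2.32 without M.5, while Ass1 and Hal stay negative in the model against normal.

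Set against each other, the arms gave no gene of the 10 with an unadjusted p under 0.05, and adjusted p-values were 0.999 for all 10 in edgeR. The breakdown enzymes were positive in arm G over arm D (Sds 1.42 ± 0.92, Hal 0.69 ± 0.44, Gls2 0.29 ± 0.43 and Tat 0.22 ± 0.36), and of the urea cycle only Asl was (0.44 ± 0.38). Cps1 was at −0.40 ± 0.59 with a 95% interval from −1.68 to 0.89, and Arg1 at −0.02 ± 0.31 with an interval from −0.68 to 0.65, so differences of that size in either direction lie within the error. Nags was the 1 gene without overlap (lower in arm G), against 3.35% of all genes, and 0 were higher without overlap, against 4.08%. Over all genes 0% passed in edgeR and DESeq2 called 5 genes, and 3.42% (423 genes) had an unadjusted p under 0.05 in edgeR, 2.45% higher and 0.971% lower. The median of the 10 was 0.10 and 5 were positive, with −0.01 and 49% positive among all genes. Without G.3 the fold change was −0.35 for Sds and 0.08 for Hal.

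The make-up of the cycle's RNA differed between libraries. The counts of the 6 urea cycle genes were summed within each library, and each gene was taken as a share of that sum. Longer transcripts give more counts, so such a share is compared for the same gene between libraries and not between genes. It does not depend on how libraries are scaled. Cps1 took 52.6%, 44.6% and 32.3% in the normal libraries, 35.2%, 26.7% and 55.2% in M.5, M.6 and M2.1, 38.2%, 43.3% and 45.5% in arm D, and 39.98%, 20.3% and 42.8% in arm G. Asl took 29.0% in G.3 and 22.3% in M.6, and between 4.31% and 13.3% in the other 10 libraries, with M2.1 the lowest. The share of Otc ran from 4.02% in N.2 to 10.8% in M.5, and all 3 model libraries (10.8%, 8.51% and 7.04%) lay above all 3 normal ones (4.25%, 4.02% and 4.79%), a comparison noticed after the values were seen and not tested. Arg1 took 18.5% in M.6 and 9.69% to 15.6% elsewhere.

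Ratios of counts within a library, each divided by its median over the 12 libraries, show the same contrasts pair by pair. Asl over Cps1 was 5.51 times its median in G.3 and 3.21 times in M.6, and 0.301 to 1.54 times in the other 10. Asl over Ass1, the enzymes of consecutive steps, was 3.18 times its median in G.3 and 2.94 times in M.6, and 0.607 to 1.42 times in the other 10. G.3 and M.6 thus had in common a high share of Asl and a low share of Cps1, while they differed in Hal, Gls2 and Sds, which were highest in G.3 and lowest in M.6. Sds over Cps1 was 23.6 times its median in G.3 and 6.14 times in M.5, but 1.26 times in M.6. The 10 genes together made up 1.27% of the counts from nuclear genes in G.3 and 0.531% in M.6, the highest and the lowest share of the 12 libraries. On the TMM scale used for the other levels, their sum was 7026 CPM in G.3, rank 7 of 12 from the highest, and 3430 CPM in M.6, again the lowest.

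**Figure D5:**
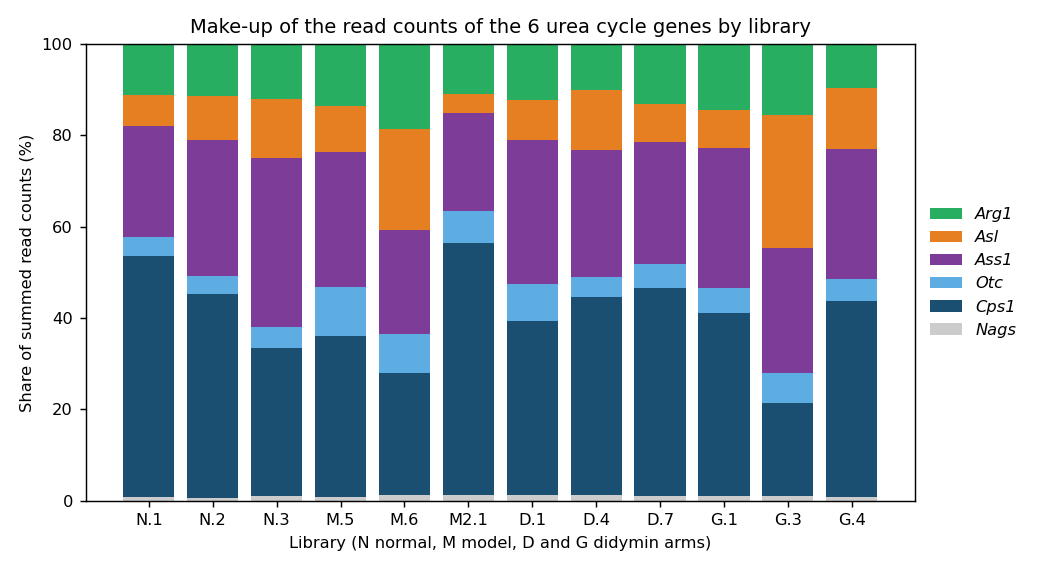
Share of each of the 6 urea cycle genes in their summed read counts (%), 1 bar per library. Asl takes 29.0% in G.3 and 22.3% in M.6, the largest shares of the 12 libraries, and Cps1 takes 20.3% and 26.7% there, the smallest; shares are not corrected for transcript length.

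Other forms of these enzymes and the opposing glutamine synthetase were named after their values were seen. Arg2, the mitochondrial arginase, had at most 7 counts in any library and was not tested. Glul, glutamine synthetase of pericentral hepatocytes, runs the reverse of the glutaminase reaction and lay between 184 and 491 CPM. The ratio of Gls2 to Glul counts was 3.44 times its median in G.3 and 0.399 times in M.6, and 0.656 to 1.22 times in the other 10 libraries. Sdsl, a serine dehydratase-like gene, stayed between 8.20 and 26.9 CPM, with G.3 again the highest library.

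Genes around the cycle were described as lists, which were chosen with earlier results of these data known. Of 12 listed transporters and accessory enzymes of the cycle, 7 passed the filter on low counts and 0 passed an adjusted p of 0.05 in any comparison. In the model against normal, 5 of the 7 were negative (median −0.31). Sirt5, a mitochondrial deacylase that acts on Cps1, was higher without overlap at 0.65 ± 0.26, and Odc1, which draws ornithine into polyamines, was at −0.31 ± 0.26. Oat, which converts ornithine to glutamate, was at 295, 301 and 303 CPM in arm G against 228, 167 and 227 CPM in the model, a log2 fold change of 0.53 ± 0.22 (unadjusted p = 0.0311 and adjusted p = 1, edgeR) without overlap, and G.3 did not stand apart there. Slc25a13, the mitochondrial aspartate and glutamate carrier that supplies aspartate to Ass1, was named after its values were seen and had a wider range than any urea cycle gene: 154, 125 and 45.1 CPM in normal, 11.3, 24.9 and 162 CPM in the model, 28.9, 86.0 and 91.9 in arm D, and 106, 26.3 and 71.4 CPM in arm G. Slc25a15, the ornithine carrier, also named after its values were seen, stayed between 278 and 444 CPM.

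The steps after Hal in histidine breakdown were uneven. Amdhd1, which acts 2 steps below Hal, was at 304 CPM in G.3 as the highest of the 12 libraries, at −0.95 ± 0.61 in the model against normal and at 1.42 ± 0.61 in arm G against the model. Uroc1, the step between them, was at 255, 266 and 210.0 CPM in normal and 270.4, 203 and 386 CPM in the model, and Ftcd, the last step, was at 462 ± 96.9 and 446 ± 16.9 CPM (SD, n = 3). Hdc, which makes histamine from histidine, was at 1.92 ± 0.70 in the model against normal, with M2.1 at 6.72 CPM inside the normal range. Of the 5 genes of that list 0 passed an adjusted p of 0.05 in edgeR in the 4 comparisons.

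In the other lists of amino acid metabolism 0 genes passed an adjusted p of 0.05 in edgeR in any of the 4 comparisons. In the model against normal the median was −0.29 for serine, glycine and threonine (7 of 11 negative), 0.12 for phenylalanine and tyrosine (3 of 7), −0.11 for tryptophan (6 of 9), −0.21 for methionine and cysteine (4 of 6), 0.01 for branched chain amino acids and lysine (5 of 15), −0.04 for transaminases and glutamate (6 of 9) and −0.31 for amino acid transporters (7 of 10). Examples, each with the smallest p of its own list, were Mat1a, which makes S-adenosylmethionine, at −0.62 ± 0.30, Aass, of lysine breakdown, at −1.75 ± 0.57, and Acmsd, of tryptophan breakdown, at −2.88 ± 1.06. Acmsd was low in M.5 and M.6, at 0.162 and 0.360 CPM, but M2.1 at 4.23 CPM lay above N.3 at 3.80 CPM. Pcbd1, with the smallest p of the phenylalanine and tyrosine list, was positive at 0.66 ± 0.42. In arm G against the model, Hpd, the step after Tat in tyrosine breakdown, was at 2149.6, 2169.8 and 2229.6 CPM against 1601, 1171 and 1322 CPM, without overlap (0.68 ± 0.30). In arm G against arm D the largest was Aspg, an asparaginase, at 1.61 ± 0.59, with G.3 at 545 CPM and the other arm G libraries at 137 and 111 CPM.

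Among 12 regulators of these genes, Ppargc1a, a coactivator of fasting metabolism, was at 4.61, 3.60 and 0.820 CPM in normal and at 0.648, 0.180 and 0.651 CPM in the model, without overlap (−2.57 ± 0.66, adjusted p = 0.73, edgeR). Creb3l3, a fasting-induced factor of the liver, was at 539, 715 and 566 CPM in normal and 331, 339.6 and 356 CPM in the model (−0.83 ± 0.25, adjusted p = 0.843), and M.6 did not stand apart from the other model libraries in this gene. Gcgr, the glucagon receptor, was at 401 CPM in G.3 and 248 CPM in M.6 and at 81.1 to 167 CPM in the other 10 libraries. Of 13 tested targets of glucagon and glucocorticoids outside the 10 genes, 12 were negative in the model against normal, with a median of −0.60, and 0 passed an adjusted p of 0.05. Sesn1, a stress-induced gene, was at −0.88 ± 0.26 and Fkbp5, a glucocorticoid target, at −0.84 ± 0.32, both without overlap. Against the model, 10 of 13 were positive in arm D (median 0.25) and 10 of 13 in arm G (median 0.54), comparisons that share the model libraries. Against normal, 11 of 13 were negative in arm D (median −0.60) and 9 of 13 in arm G (median −0.26). The median of all tested genes against normal was −0.01 in arm D and 0.01 in arm G. The share of all genes that were negative in these 2 comparisons was not computed.

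Other genes enriched near the portal vein, where these enzymes are known to lie, were split in the model against normal, with 6 of 12 negative and a median of −0.13. Without overlap 3 of the 12 were lower, with Pck1, a gluconeogenic enzyme, at −1.15 ± 0.51, and 2 were higher. Genes enriched near the central vein had a median of 0.13 (4 of 13 negative). Without overlap 3 of the 13 were higher, with Cyp7a1, of bile acid synthesis, at 1.93 ± 0.46, and 1 was lower. That was Cyp1a2, named after its values were seen, at −1.175 ± 0.61. Over all tested genes 5.25% were higher and 5.29% lower without overlap. Hepatocyte markers were negative in 13 of 16 (median −0.51), and their summed level ran from 190526 to 229379 CPM in normal, 91382 to 187615 CPM in the model, 176614 to 182671 CPM in arm D and 55030 to 206659 CPM in arm G, lowest in G.3 and M.6. Markers of macrophages, endothelium, lymphocytes, stellate cells and bile duct summed to 259 to 301 CPM in normal, 166 to 242 CPM in the model, 247 to 554 CPM in arm D and 203 to 314 CPM in arm G. In arm D against the model 7 of 16 of them had an unadjusted p under 0.05 and were higher, where 3.04% of all tested genes were, Csf1r of macrophages at 1.45 ± 0.39 among them, and 0 passed the adjusted threshold. The arm D libraries were uneven here. The markers summed to 247 CPM in D.1, 554 CPM in D.4 and 454 CPM in D.7, and Csf1r was at 51.2, 156 and 124 CPM. The part of these marker levels in the values of the 10 genes was not tested.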

How the data were processed

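Liver RNA was extracted with Trizol and sequenced from NEBNext Ultra libraries, per the labels' protocols. The authors deposited 3 tables of 6 libraries each, which set the normal group and each didymin arm against the model, and hold each gene's raw read counts, per the file headers. The tables also hold the authors' deposited log2 fold change, p-value and adjusted p-value, used only where that table is named. A mouse build, mm9, and DESeq2 are named by the submitters' processing notes, both without a version, while 14408 of 16558 gene names equal a rat symbol. The sources used here do not give the aligner, counting tool, annotation or use of strand, and no gene coordinates of the files were used. The 36 other per-sample columns were not used, so levels of different genes are not compared.

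Columns were matched to groups by letter, since outside the normal group they do not carry the replicate numbers of the labels. Tables were joined by gene name, the model counts being the same in all 3. Counts were tested in edgeR 4.0.16 (R 4.3.3) with filterByExpr (12355 genes kept), TMM scaling, 1 quasi-likelihood fit of all 12 libraries with 8 residual degrees of freedom, and Benjamini-Hochberg adjustment over all tested genes at 0.05. The common biological coefficient of variation was 0.409. SEs and 95% intervals come from this fit. The script was tested on simulated data. Alternatives were RLE scaling, no filter, DESeq2 1.42.0, limma-voom (limma 3.58.1), 2 groups per fit, mitochondrial genes left out, the mitochondrial share as a covariate, and libraries left out.

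The genes, the lists and the tests were chosen with earlier results of these data known. Of each list, up to 2 genes per comparison with the smallest unadjusted p could be named, with all 10 genes of the main set and the 5 genes most like them, and any other gene is said to be named after its values were seen. A few further genes appear only as markers of depth or tissue. Promoter windows are from RefSeq (GRCr8) and served only for sequence.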

Additional observations from a re-analysis of the deposited data

How the results depend on the processing

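None of the 10 genes passed an adjusted p of 0.05 in any of the 4 comparisons under any alternative, and the smallest adjusted p was 0.175. Of 840 recomputed fold changes, 783 kept their sign and 57 turned, 32 of these with 1 library left out. The cause was not tested.

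Over all genes, DESeq2 called 42 genes in the model against normal, 14 in arm D and 5 in arm G against the model, and 5 in arm G against arm D. Without a filter on low counts 3 were called in the model against normal and 1 in arm G against arm D, and without M.6 and G.3 1 in the model against normal. With 1 library left out the count ran from 0 to 6 in the model against normal (6 without G.3) and from 0 to 1 in arm G against arm D (1 without G.4).

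Without M.6 and G.3, log2 fold changes turned to 0.042 (Nags) and 0.16 (Tat) in the model against normal, to −0.030 (Nags), −0.026 (Cps1), −1.30 (Sds) and −0.045 (Tat) in arm G against the model, and to 0.041 (Ass1), 0.034 (Arg1), −0.13 (Gls2) and −0.35 (Sds) in arm G against arm D. With M2.1 left out too, an alternative chosen after seeing the data, they were 0.25 (Tat) in the model against normal, −1.97 (Sds) and −0.14 (Tat) in arm G against the model, and 0.044 (Ass1), 0.037 (Arg1), −0.13 (Gls2) and −0.34 (Sds) in arm G against arm D. With the mitochondrial share as a covariate they were 0.032 (Tat, model against normal), −0.012 (Sds, arm G against model), and 0.083 (Cps1), 0.11 (Ass1) and 0.10 (Arg1) in arm G against arm D. Cps1 in arm G against the model, 0.00 with all libraries, was −0.016 with RLE scaling and with DESeq2 and −0.0025 with 2 groups only.

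With 1 library left out, genes that turned had these ranges. In the model against normal they were −0.77 to 0.042 for Nags, −0.25 to 1.64 for Sds and −0.28 to 0.15 for Tat. In arm D against the model they were −0.0065 to 1.18 for Cps1, −0.42 to 0.058 for Otc, −0.98 to 0.91 for Sds and −0.32 to 0.12 for Tat. In arm G against the model they were −0.17 to 0.65 for Nags, −0.40 to 0.78 for Cps1, −0.018 to 0.38 for Arg1, −0.81 to 2.32 for Sds and −0.19 to 0.36 for Tat. In arm G against arm D they were −0.34 to 0.042 for Ass1, −0.28 to 0.12 for Arg1, −0.13 to 0.51 for Gls2, −0.35 to 1.87 for Sds and −0.11 to 0.44 for Tat.

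No paired analysis was possible because the count columns outside the normal group do not carry the replicate numbers of the labels. With 3 libraries per group and a biological coefficient of variation of 0.409, these data limit what can be told of changes in these genes more through the spread between libraries than through depth, the lowest count of the 10 genes being 355.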

Other observations

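The genes whose log2 CPM followed the mean standardised level of the 10 genes most closely over the 12 libraries were Rflnb (Pearson's r = 0.92), Zfp385a (0.91), Ncapd3 (0.90), Fgd1 (0.90) and Erich1 (0.90), out of 12345 other genes. They are the highest of that many values, the libraries share groups and mitochondrial share, and M.6 is far below the rest in the mean (−1.73 standard deviations, against −0.30 to 0.69 in the other 11), so this is a description of these libraries.

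Glud1, glutamate dehydrogenase, which frees ammonia from glutamate and was named after its values were seen, was at 848, 962 and 795 CPM in normal, 633, 456 and 910.4 CPM in the model, 552, 584 and 616 in arm D, and 787, 271 and 580.2 CPM in arm G. Its arm D libraries lay below every normal library, unlike those of Ass1, Asl and Arg1, and G.3 was its lowest library, as it was for Alb. Etnppl, a periportal lyase, was at 39.6, 34.2 and 46.8 CPM in arm D and at 97.5, 142 and 120.5 CPM in the model (−1.58 ± 0.54, adjusted p = 0.783 in edgeR), without overlap.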
